A study of Mus musculus with 12 samples.

Results

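The immunity-related GTPases are a family of interferon-inducible enzymes of mouse cells, and the 7 members described here are Irgm1, Irgm2, Igtp, Iigp1, Ifi47, Tgtp1 and Tgtp2. They were set by gene symbol, with no cut on a measured value, but with earlier results of these data known. They are 7 of the 55401 genes in the deposited count table. RNA-seq was made from 12 libraries in 4 groups of 3. The labels name the cells as B16F10, a transplantable mouse melanoma line, carrying either a guide RNA against Rnf19a (sgRnf19a) or a control guide (sgNC), each untreated or 24 h into a treatment written IR, which the labels do not spell out. The groups are sgRnf19a cells with IR (sgRnf19a_IR), control cells with IR (control_IR), untreated sgRnf19a cells (sgRnf19a) and untreated control cells (control). The sources used here do not say whether either line is a single clone or whether a group's libraries were grown separately, so p-values measure the spread between libraries, which may be technical.

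In mice these GTPases defend a cell against microbes that live in a membrane-bound vacuole, such as Toxoplasma and Chlamydia. Irgm1, Irgm2 and Igtp are known as the regulators: they sit on the cell's own membranes and keep the effector members inactive there. Iigp1, Ifi47, Tgtp1 and Tgtp2 belong to the effectors, which load onto the vacuole and break it open. Transcription of the family is known to be induced by interferons, through gamma-activated sites and interferon-stimulated response elements in the promoters, and factors of the Irf family bind the response elements.

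Features of the libraries touch every result below. Total counts were 37933461 to 45576326 in sgRnf19a_IR, 34262483 to 42239465 in control_IR, 63834348 to 67926709 in sgRnf19a and 62681644 to 71265107 in control. Of 8 markers of melanocytes and their tumours, no library held a count of Mlana, Slc45a2, Tyr or Tyrp1, which goes against the labelled line. The other 4 were detected, most of it Mitf, and the 8 summed to 3.73 to 10.5 CPM in sgRnf19a_IR, 2.29 to 3.09 CPM in control_IR, 15.8 to 16.4 CPM in sgRnf19a and 9.53 to 13.8 CPM in control, higher with the guide in each condition. This holds for the sum, not for each marker. Of the 3 markers tested, none was called with the guide in untreated cells, where their median log2 fold change was -0.71. After IR 1 of the 3 was called higher, with a median of 1.40. The part of these 8 markers in the results was not tested. Rnf19a, the gene the guide targets, was at 18.1, 11.6 and 37.7 CPM (a gene's counts relative to its library's TMM-scaled total) in sgRnf19a_IR, 4.37, 8.06 and 5.39 CPM in control_IR, 27.5, 25.6 and 22.6 CPM in sgRnf19a and 33.5, 29.4 and 21.5 CPM in control. Its mRNA was thus not called lower with the guide in untreated cells (log2 fold change -0.16, SE 0.36, adjusted p = 0.881), and it was higher with the guide after IR (1.92, SE 0.38, adjusted p = 0.00352). An edit need not lower an mRNA, so this count does not check the labels, and the groups are named as labelled throughout. Long transcripts were under-represented after IR. The measure was the median log2 level of genes with transcripts over 6 kb minus the median of genes under 1 kb. It was 2.99 to 4.08 in sgRnf19a_IR and 2.69 to 2.80 in control_IR, against 5.03 to 5.08 in sgRnf19a and 4.71 to 4.92 in control. The members' transcripts, of 1773 to 3528 bases, lie between 1 kb and 6 kb.

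Promoter sequences are shown because the members moved together, and because they show how alike their upstream regions are. Members' promoter windows were taken from RefSeq on GRCm38.p6 for chromosome 11 only. This covered 6 of the 7 members and left out Iigp1, whose promoter is thus not described here. The search covered the 250 bases before each start. The response element core GAAANNGAAA, searched on both strands, was found in 5 of the 6 members and in 821 of all 27025 promoters of the same length (3.04%). The palindromic gamma-activated site TTCNNNGAA was found in 4 of the 6 and in 7.18% of all promoters. Both motifs occurred in 4 of the 6 members and in 0.389% of all promoters. The 60 bases around the matches are given on the gene's own strand, with the matches in capitals; for Irgm1 the capitals mark a pair of response element cores that overlap by 4 bases, and for the others a gamma-activated site followed by a response element core.
Irgm1, chr11:48871431-48871490, minus strand: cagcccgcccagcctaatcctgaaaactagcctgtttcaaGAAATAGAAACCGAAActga
Irgm2, chr11:58214873-58214932, plus strand: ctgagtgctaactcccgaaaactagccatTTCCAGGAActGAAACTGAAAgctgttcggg
Igtp, chr11:58199482-58199541, plus strand: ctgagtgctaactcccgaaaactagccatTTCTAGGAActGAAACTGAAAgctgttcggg
Tgtp1, chr11:48992304-48992363, minus strand: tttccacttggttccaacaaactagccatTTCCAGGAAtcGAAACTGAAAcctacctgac
Tgtp2, chr11:49064263-49064322, minus strand: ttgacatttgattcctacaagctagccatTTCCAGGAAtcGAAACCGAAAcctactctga

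The gamma-activated site begins 75 bases before the start of Irgm2, 45 before that of Igtp, 88 before that of Tgtp1 and 81 before that of Tgtp2. In each of these 4 promoters it overlaps the last bases of the block CTAGCCATTTC. The block was taken, after the sequences were seen, as the longest stretch these 4 promoters share. Its presence in them was thus fixed by that choice. With these 4 included, it occurs in 8 of the 27025 promoters (0.0296%). The other 4 promoters that hold the block belong to Gm12185, which neighbours Tgtp1 and is related to the family, and to Zfand2b, 1700031L13Rik and Gm51887. Ifi47 had a window with neither motif nor the block, which says only that these letters are not in those 250 bases. In the GENCODE M21 annotation of mm10, the Irgm1 window lies in an exon of a non-coding Irgm1 transcript, the Irgm2 and Tgtp1 windows lie inside the gene models but in no exon, the Tgtp1 and Tgtp2 windows lie in the Olfr56 model on the other strand, and the Igtp window lies in no gene.

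Irgm1 (ENSMUSG00000046879, chr11:48861968-48871683), Tgtp1 (ENSMUSG00000078922, chr11:48985327-48994172), Tgtp2 (ENSMUSG00000078921, chr11:49057194-49064206) and Ifi47 (ENSMUSG00000078920, chr11:49076587-49096974) form a cluster, in mm10 coordinates. Igtp (ENSMUSG00000078853, chr11:58199556-58207591) and Irgm2 (ENSMUSG00000069874, chr11:58199618-58222782) overlap each other on the same strand, and Iigp1 (ENSMUSG00000054072, chr18:60376027-60392634) lies apart. How far counts can be told apart was measured as the share of a gene's 37-base transcript stretches, the length of a read, that occur in another gene. That share was 83.3% for Tgtp1 and 89.3% for Tgtp2, nearly all of it between the pair (81.9% and 88.1%), so their separate counts are uncertain. For the other members it was 14.4% for Igtp and 9.71% for Irgm2, 5.87% for Ifi47, 4.76% for Iigp1 and 1.58% for Irgm1. Igtp and Irgm2 share 162 exonic bases, Ifi47 shares 111 with Olfr56 and Tgtp1 shares 223 with Gm12185, all on the same strand.

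All 7 members passed the filter on low counts, and all 7 were higher with the sgRnf19a guide, untreated and after IR, with no overlap between the libraries of the groups compared. Of all 18183 genes that passed the filter, 22.3% lay higher without overlap with the guide in untreated cells and 22.99% after IR. Irgm1, a regulator that also takes part in autophagy and mitochondrial quality control in mice, was at 942, 686 and 1524 CPM in sgRnf19a_IR, 81.9, 132 and 107 CPM in control_IR, 189, 170 and 181 CPM in sgRnf19a and 40.6, 40.5 and 31.4 CPM in control. It had the highest control level of the family. Irgm2, a regulator found on Golgi membranes, was at 528, 377 and 655 CPM in sgRnf19a_IR, 39.3, 66.1 and 62.2 CPM in control_IR, 70.0, 74.4 and 77.3 CPM in sgRnf19a and 12.3, 11.1 and 10.1 CPM in control. Igtp, a regulator of the endoplasmic reticulum and lipid droplets, was at 875, 687 and 956 CPM in sgRnf19a_IR, 44.3, 73.8 and 54.5 CPM in control_IR, 58.8, 56.6 and 62.9 CPM in sgRnf19a and 9.09, 8.75 and 8.03 CPM in control. For each regulator the 3 sgRnf19a_IR libraries stood far above the other 9 and the 3 control libraries below them.

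The effectors started from much lower levels. Iigp1 was at 234, 135 and 479 CPM in sgRnf19a_IR, 4.08, 6.60 and 6.01 CPM in control_IR, 18.5, 19.3 and 22.7 CPM in sgRnf19a and 0.415, 0.907 and 0.517 CPM in control. Ifi47 was at 245, 210 and 239 CPM in sgRnf19a_IR, 7.85, 8.89 and 8.26 CPM in control_IR, 5.49, 5.30 and 6.83 CPM in sgRnf19a and 0.609, 0.959 and 0.951 CPM in control. These control levels rest on 30 to 70 counts of Iigp1 and 44 to 79 of Ifi47. Low values of the table pile up at multiples of 4, so a count need not be a single read. Tgtp1, a T-cell-specific GTPase by name that other cell types induce as well, was at 512, 428 and 620 CPM in sgRnf19a_IR, 7.14, 9.21 and 7.70 CPM in control_IR, 15.1, 15.4 and 18.03 CPM in sgRnf19a and 0.360, 0.985 and 0.770 CPM in control. Its near-copy Tgtp2 was at 398, 327 and 513 CPM in sgRnf19a_IR, 7.10, 11.4 and 8.05 CPM in control_IR, 13.5, 13.8 and 16.1 CPM in sgRnf19a and 0.844, 1.35 and 1.16 CPM in control. Every control_IR and every sgRnf19a library of these 4 genes lay between the control and the sgRnf19a_IR libraries.

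**Figure D1:**
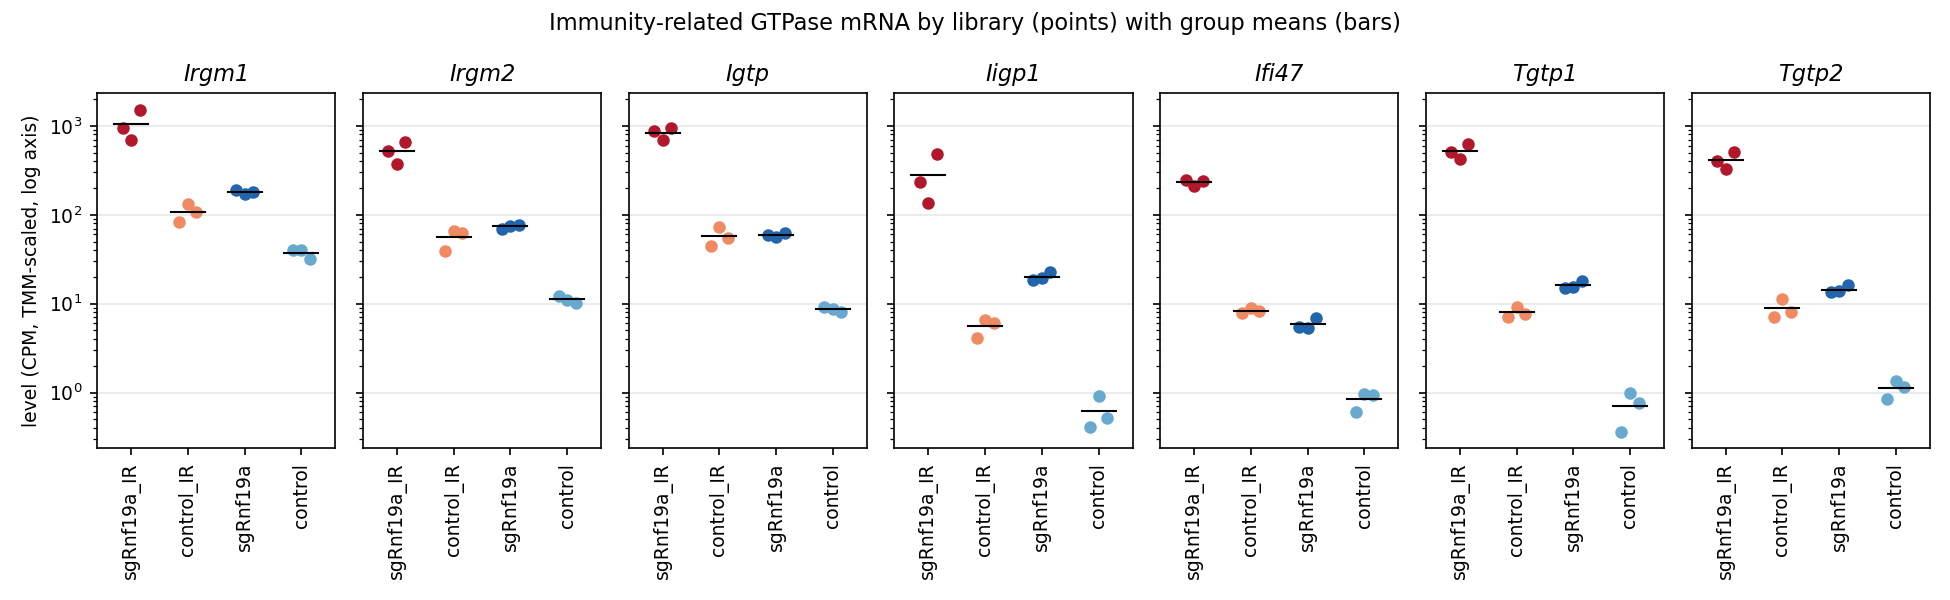
Level of each member in each library, in CPM on a log axis, by group; points are the 3 libraries and horizontal bars the group mean. In every panel the sgRnf19a_IR libraries are the highest and the control libraries the lowest, from 1524 CPM for Irgm1 in an sgRnf19a_IR library down to 0.360 CPM for Tgtp1 in a control library.

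The untreated sgRnf19a libraries and the control_IR libraries, which differ in both guide and treatment, both lay in the middle, and no test was made between them. Irgm1, Irgm2, Iigp1, Tgtp1 and Tgtp2 were higher in every sgRnf19a library than in every control_IR library. Ifi47 ran the other way, with 5.30 to 6.83 CPM in sgRnf19a and 7.85 to 8.89 CPM in control_IR, and Igtp overlapped, with 56.6 to 62.9 CPM in sgRnf19a and 44.3 to 73.8 CPM in control_IR. Summed over the family, the level was 3734, 2849 and 4986 CPM in sgRnf19a_IR, 192, 308 and 253 CPM in control_IR, 370, 355 and 385 CPM in sgRnf19a and 64.2, 64.5 and 53.0 CPM in control. In bulk RNA a larger share of cells that express these genes and more RNA per cell cannot be told apart.

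With the guide in untreated cells, 7 of 7 members were called higher (edgeR's quasi-likelihood test, Benjamini-Hochberg adjusted over 18183 genes), where 3.02% of all genes tested were called higher and 3.20% lower. The members' median log2 fold change was 2.80, and that of all genes was 0.03. Iigp1 rose most, by 5.03 on the log2 scale (SE 0.47), or 32.7-fold, with an adjusted p of 4.62e-05. Tgtp1 followed at 22.8-fold and Tgtp2 at 12.9-fold, or 16.8-fold for their summed counts. Ifi47 at 6.96-fold, Igtp at 6.89-fold, Irgm2 at 6.61-fold and Irgm1 at 4.80-fold formed a lower set, so Ifi47 changed about as much as the regulators and less than the other effectors. The largest adjusted p of the 7 was 0.000268, for Irgm1.

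After IR the guide again went with higher levels of 7 of 7 members, here against a background of 20.96% of all genes called higher and 12.8% lower. Their median log2 fold change was 4.79, and that of all genes was 0.07. Tgtp1 rose by 6.02 on the log2 scale (SE 0.31), or 64.8-fold, with an adjusted p of 5.62e-07. Iigp1 was 50.7-fold higher, Tgtp2 46.5-fold, Ifi47 27.7-fold, Igtp 14.6-fold, Irgm1 9.84-fold and Irgm2 9.30-fold. All 4 effectors thus changed more than all 3 regulators, as a description of these folds. Ranked from the highest log2 fold change down, the members lay between 342 and 892 among the 18183 genes after IR, and between 74 and 373 in untreated cells. Many other genes thus had higher log2 fold changes after IR, and the ranking includes genes that were not called.

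**Figure D2:**
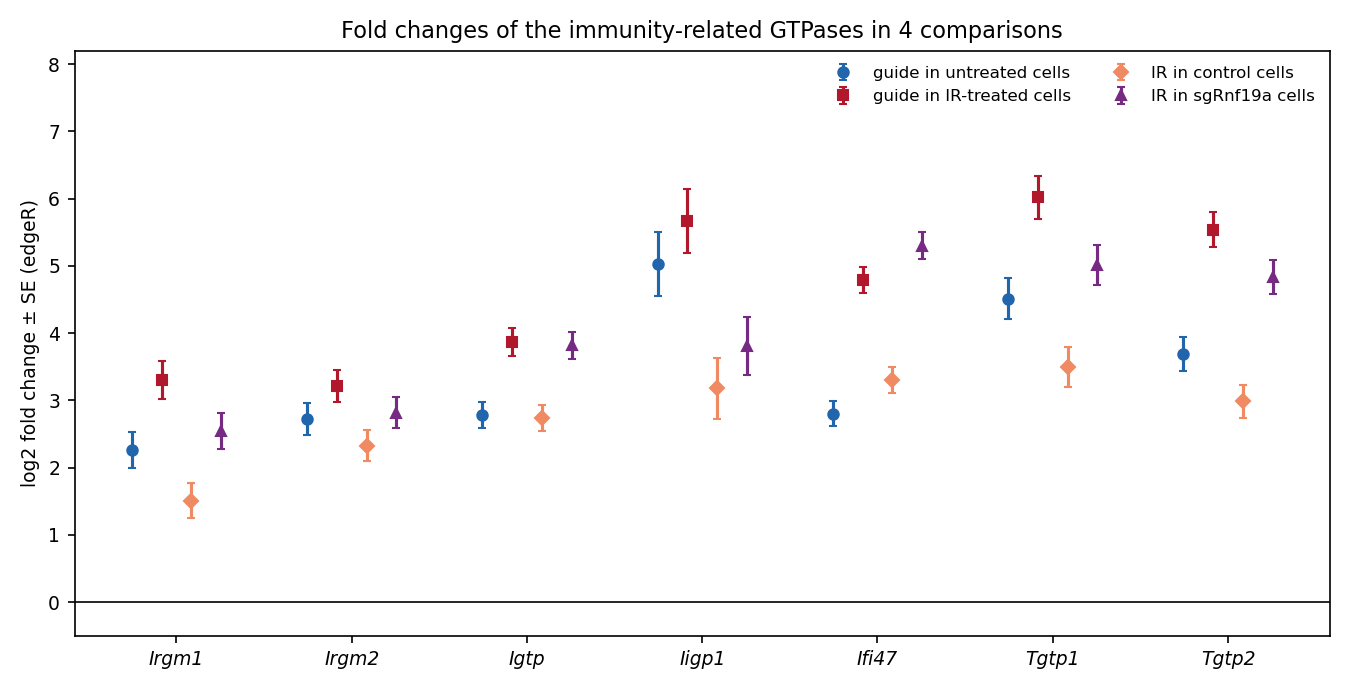
Log2 fold change of each member (vertical axis, edgeR, error bars are 1 SE) in 4 comparisons: sgRnf19a over control guide in untreated cells (circles) and in IR-treated cells (squares), and IR over untreated in control cells (diamonds) and in sgRnf19a cells (triangles). All 28 values lie above 0, from 1.51 for Irgm1 with IR in control cells to 6.02 for Tgtp1 with the guide after IR.

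IR also went with higher levels of the family under either guide. These comparisons share libraries with the guide comparisons, so they are not independent of them. In sgRnf19a cells 7 of 7 members were called higher, where 17.96% of all genes were called higher and 17.6% lower. Their groups did not overlap either, as for 23.2% of all genes in that direction. Ifi47 rose most there, by 5.30 on the log2 scale (SE 0.20), or 39.4-fold, with an adjusted p of 7.78e-08. Tgtp1 was 32.2-fold higher, Tgtp2 28.6-fold, Igtp 14.1-fold, Iigp1 14.0-fold, Irgm2 7.04-fold and Irgm1 5.84-fold. In control cells 7 of 7 members were called higher as well, where 22.2% of all genes were called higher and 25.7% lower. Again no member's groups overlapped, which was so for 30.04% of all genes in that direction. Tgtp1 was 11.3-fold higher there, Ifi47 9.88-fold, Iigp1 9.05-fold, Tgtp2 7.92-fold, Igtp 6.68-fold and Irgm2 5.001-fold. Irgm1 changed least, by 1.51 on the log2 scale (SE 0.26), or 2.85-fold, with an adjusted p of 0.0006. The call of Iigp1 in control cells was lost on log2(FPKM + 1), where its log2 fold change was 0.66 and its adjusted p reached 0.268. Adjusting each library for the length and GC content of transcripts left all 28 calls in place, but raised the IR response of Iigp1 in control cells to 22.2-fold, against 9.05-fold as counted, raised its IR response in sgRnf19a cells to 22.1-fold, against 14.0-fold as counted, and lowered its guide effect after IR to 26.0-fold, against 50.7-fold as counted. For Tgtp1 and Tgtp2 it raised the IR response in control cells to 18.4-fold and 12.9-fold, and lowered their guide effects after IR to 42.9-fold and 30.7-fold.

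The IR response was compared between guides by the interaction term of the same fit. The difference, sgRnf19a cells minus control cells on the log2 scale, was above 0 for all 7 members, and 2 of 7 were called, where 0.544% of all genes were called higher and 0.137% lower. Ifi47 had the largest, 1.99 (SE 0.25, adjusted p = 0.0110), from a 39.4-fold response in sgRnf19a cells and a 9.88-fold one in control cells. For Tgtp2 it was 1.85 (SE 0.32, adjusted p = 0.0318), and for the summed counts of Tgtp1 and Tgtp2 1.72 (SE 0.33, adjusted p = 0.0426). The other 5 members missed the threshold, which does not show that their responses were alike. Approximate 95% intervals, unadjusted, ran from 0.77 to 2.25 for Tgtp1 (adjusted p = 0.0877), 0.57 to 1.59 for Igtp (adjusted p = 0.0767) and 0.32 to 1.75 for Irgm1 (adjusted p = 0.149). For Irgm2 the interval was -0.11 to 1.10 (adjusted p = 0.388) and for Iigp1 -0.51 to 1.78 (adjusted p = 0.578).

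The Ifi47 call held in 22 of 23 alternatives and was lost without control_IR replicate 5, with an adjusted p of 0.0689. That of Tgtp2 held in 14 of 22 and was lost without any of 8 single libraries, with adjusted p-values up to 0.107. Over the 12 fits that leave out 1 library, 0 of 7 members were called without control_IR replicate 5, 1 of 7 without any of 7 others, and 5 of 7 without sgRnf19a_IR replicate 3. With the length and GC adjustment, Igtp was called in addition (1.18, adjusted p = 0.0348). The adjusted difference for Iigp1 was -0.0084, against 0.63 (SE 0.59) as counted. An SE was derived from the log2 value and its test statistic, which is not reliable this near 0, so none is given for the adjusted value.

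**Figure D3:**
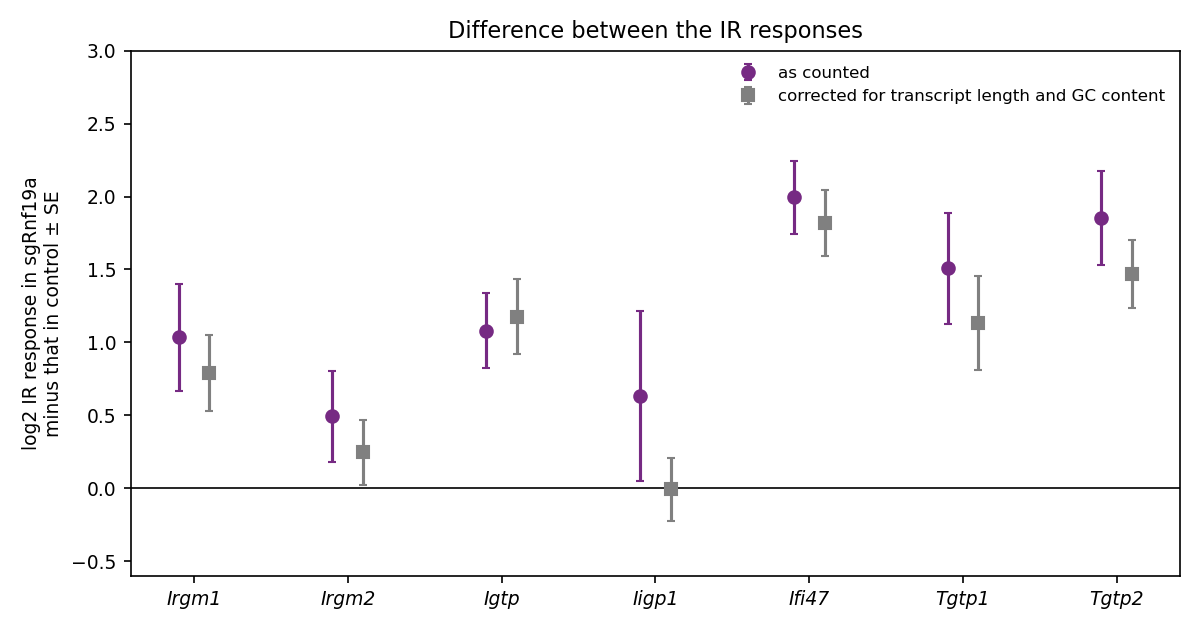
Difference between the log2 IR responses, sgRnf19a cells minus control cells, for each member (error bars are 1 SE), as counted (circles) and adjusted for the length and GC content of transcripts (squares). Ifi47 stands highest at 1.99 as counted and 1.82 adjusted, and Iigp1 lies at 0.63 as counted and at about 0 adjusted. The error bar of the adjusted Iigp1 value is not a reliable SE, since it was derived from a value near 0.

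Levels were compared between genes on the deposited FPKM, which are per transcript length. Igtp led in sgRnf19a_IR with 336 ± 84.7 FPKM (SD, n = 3), clear of Irgm1 at 147 ± 66.2, Tgtp1 at 131 ± 33.6, Irgm2 at 114 ± 38.3 and Tgtp2 at 113 ± 32.9, whose ranges overlap from each to the next. Ifi47 at 75.4 ± 14.5 FPKM and Iigp1 at 39.7 ± 25.9 FPKM had the lowest means there, and Ifi47 overlapped both Tgtp2 and Iigp1. In control_IR the order was Igtp at 22.9 ± 6.57 FPKM, Irgm1 at 14.8 ± 3.93 and Irgm2 at 12.2 ± 3.61, with overlapping ranges, then a step down to Ifi47 at 2.69 ± 0.27, Tgtp2 at 2.42 ± 0.68 and Tgtp1 at 1.998 ± 0.33, and Iigp1 last at 0.766 ± 0.211 FPKM. Untreated sgRnf19a cells had Irgm1 at 33.999 ± 2.28 and Igtp at 32.2 ± 1.80 FPKM, which overlap, above Irgm2 at 22.0 ± 0.84, and Ifi47 was last at 2.59 ± 0.37 FPKM. Untreated control cells had Irgm1 alone on top at 7.23 ± 0.99 FPKM, then Igtp at 4.78 ± 0.27 and Irgm2 at 3.39 ± 0.29, with all 4 effectors at 0.117 to 0.422 FPKM on average.

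The make-up of the family's mRNA pool is given as shares of the summed FPKM. Irgm1, Irgm2 and Igtp together held 62.3% ± 0.83 of the summed FPKM in sgRnf19a_IR, 86.1% ± 1.33 in control_IR, 83.6% ± 1.10 in sgRnf19a and 93.0% ± 2.18 in control (SD, n = 3 each). Tgtp1 and Tgtp2 together held 25.7% ± 0.94, 7.73% ± 0.62, 10.3% ± 0.61 and 4.04% ± 1.32 in the same 4 groups. The share of the regulators was lower in every sgRnf19a_IR library than in any other library. No test was made on these shares.

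**Figure D4:**
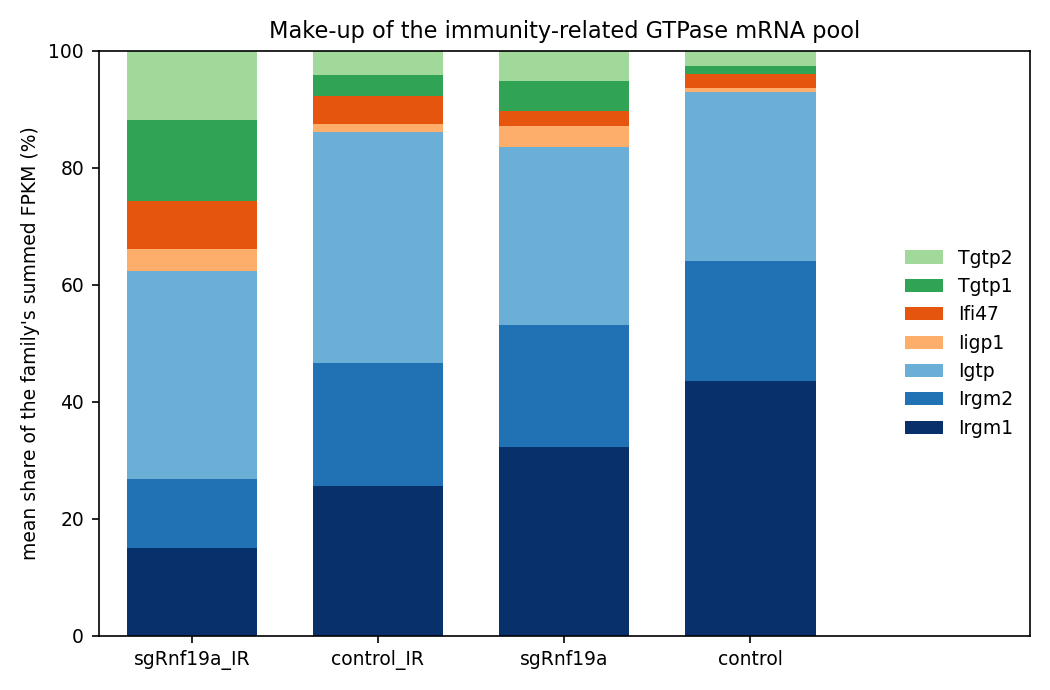
Share of each member in the family's summed FPKM, as the mean of 3 libraries in percent, by group. The regulators Irgm1, Irgm2 and Igtp (blues) make up 62.3% in sgRnf19a_IR, 86.1% in control_IR, 83.6% in sgRnf19a and 93.0% in control, and the Tgtp pair (greens) 25.7% in sgRnf19a_IR against 4.04% in control.

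The spread between libraries of a group differed between members. In sgRnf19a_IR, Iigp1 differed 3.54-fold between its highest and lowest library, Irgm1 2.22-fold, Irgm2 1.74-fold, Tgtp2 1.57-fold, Tgtp1 1.45-fold, Igtp 1.39-fold and Ifi47 1.17-fold. For Iigp1, Irgm1 and Irgm2 this was the widest of the 4 groups, while Igtp and Tgtp2 spread most in control_IR, 1.66-fold and 1.61-fold, and Tgtp1 and Ifi47 in control, 2.74-fold and 1.57-fold. Replicate 3 of sgRnf19a_IR was the lowest of the 3 for every member, and replicate 4 the highest for all but Ifi47, which peaked in replicate 1. The same libraries differed in the long-minus-short measure given above, at 2.99 in replicate 3, 3.50 in replicate 1 and 4.08 in replicate 4. With the length and GC correction the SE of the Iigp1 guide effect after IR was 0.26, against 0.47 as counted. The ratio of Tgtp1 to Tgtp2 counts was 1.21 to 1.31 in sgRnf19a_IR, 0.807 to 1.01 in control_IR, 1.12 in each sgRnf19a library and 0.426 to 0.731 in control, which cannot be read as a shift between the genes while they share most of their sequence.

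Across the 12 libraries the members' log2 levels ran in parallel, with Pearson r from 0.944 (Ifi47 and Iigp1) to 0.999 (Tgtp1 and Tgtp2). The points share the 4 groups, whose means drive these values. The same measure was taken over 10737 genes with a mean of at least 2 CPM. Genes with predicted names such as Gm or Rik, which most other IRG-like genes have, were left out. Among the genes compared, the profiles nearest to the family mean included Zbp1 (r = 0.996), a sensor of Z-form nucleic acids. The others were Ifit3 (0.993) and Ifit3b (0.989), antiviral RNA-binding proteins, AW011738 (0.991), Isg20 (0.985), an RNA exonuclease, and Parp12 (0.983), an ADP-ribosyltransferase. Zbp1 was at 219, 184 and 182 CPM in sgRnf19a_IR, 9.69, 11.8 and 10.1 CPM in control_IR, 16.3, 14.3 and 16.1 CPM in sgRnf19a and 1.99, 2.02 and 2.13 CPM in control. Zbp1 was also the gene nearest to either of the Tgtp pair among those compared, with smaller guide effects, 7.59-fold in untreated cells and 18.6-fold after IR. For single members the nearest genes were AW011738 for Irgm1 and Irgm2, Isg20 for Igtp, Trim34a for Iigp1 and Ifit1 for Ifi47.

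Other IRG-like genes behaved much like the members with the guide. Of 11 listed, 9 were tested, and 8 were higher with the guide in untreated cells and 8 after IR, none lower. Their median log2 fold change was 2.83 and 4.69, with a gene at 0 in control cells set to a floor of 12 counts over a group. Irgq, a divergent relative, was the gene not called, at -0.15 in untreated cells and -0.26 after IR. F830016B08Rik had 77, 21 and 241 counts in sgRnf19a_IR and 118, 99 and 63 in sgRnf19a, while all 6 control-guide libraries had 0. Gm12250, an IRG gene beside Igtp, was at 78.4, 57.2 and 72.0 CPM in sgRnf19a_IR, 1.81, 4.82 and 3.11 CPM in control_IR, 1.33, 2.38 and 1.27 CPM in sgRnf19a and 0.194, 0.544 and 0.277 CPM in control. With IR, 6 of 9 were higher in sgRnf19a cells and 2 of 9, Gm12250 and Gm12185, in control cells, the share of all genes called higher there (22.2%). With the length and GC adjustment 4 of 9 were called in control cells, Gm4951 and Gm4841 in addition. Gm12185 shares exonic bases with Tgtp1.

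Guanylate-binding proteins, the larger GTPases that act beside this family on vacuoles, gave 6 of 10 higher with the guide in untreated cells, 8 of 10 after IR, 8 of 10 with IR in sgRnf19a cells and 2 of 10 with IR in control cells, none lower. The last count is near the 22.2% of all genes called higher there, and it was 5 of 10 with the length and GC adjustment. Gbp2 had an IR response that differed between guides by 2.92 on the log2 scale (adjusted p = 0.0162), the only call of that list. It averaged 698 ± 264 CPM in sgRnf19a_IR, 25.6 ± 8.36 CPM in control_IR, 16.6 ± 0.60 CPM in sgRnf19a and 4.62 ± 1.18 CPM in control (SD, n = 3 each).

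Upstream of the family, the ligand gene Ifng had 0 counts in all 12 libraries. Ifnb1, which encodes interferon beta, was at 23.9, 28.4 and 22.4 CPM in sgRnf19a_IR and 16.3, 23.2 and 23.8 CPM in control_IR, against 0.214, 0.143 and 0.400 CPM in sgRnf19a and 0.235, 0.143 and 0.205 CPM in control. It was higher with IR under both guides, and its log2 fold change with the guide was 0.37 in untreated cells (adjusted p = 0.694) and 0.24 after IR (adjusted p = 0.534). The receptor genes Ifngr1 and Ifngr2 were not called with the guide in untreated cells, and Ifngr2 was lower with it after IR, at -0.59 (adjusted p = 0.0200).

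Irf1, which is needed for full induction of the family in mice, was at 332, 306 and 311 CPM in sgRnf19a_IR, 108, 145 and 130 CPM in control_IR, 61.8, 62.1 and 56.9 CPM in sgRnf19a and 51.0, 54.9 and 50.4 CPM in control. Its guide effect was 0.21 in untreated cells (adjusted p = 0.460) and 1.31 after IR (adjusted p = 3.83e-05), and its IR responses differed between guides by 1.10 (adjusted p = 0.0255). Of the list of interferon ligands, receptors and signalling genes, 20 were tested. With the guide in untreated cells 5 were higher, Irf7, Irf9 and Usp18 among them, and 0 lower. Of all genes, 3.02% were called higher there and 3.20% lower. After IR 12 of the 20 were higher and 3 lower, where 20.96% of all genes were called higher and 12.8% lower. The count of lower genes is near that share.

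Genes of the ATG8 conjugation system, which directs the effectors to vacuoles in mice, were not called higher with the guide in either condition (0 of 12), and Gabarapl2, an ATG8 protein, was lower with it in untreated cells at -0.81 (adjusted p = 0.0178) and after IR at -0.65 (adjusted p = 0.0158). With IR, 8 of 12 were higher in sgRnf19a cells and 9 of 12 in control cells, with medians of 0.84 and 0.55 on the log2 scale. Of all genes, 17.96% and 22.2% were called higher there. Of 10 genes for the ubiquitin machinery that gathers on IRG-coated vacuoles, Trim21, a ligase, and Rnf31, a linear-chain ligase subunit, were higher with the guide in untreated cells, and 5 were higher and 1 lower after IR. Of all genes, 3.02% were called higher with the guide in untreated cells, and 20.96% higher and 12.8% lower after IR. The medians of the ATG8 and ubiquitin lists lay within 0.4 of 0 on the log2 scale in the guide comparisons.

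**Figure D5:**
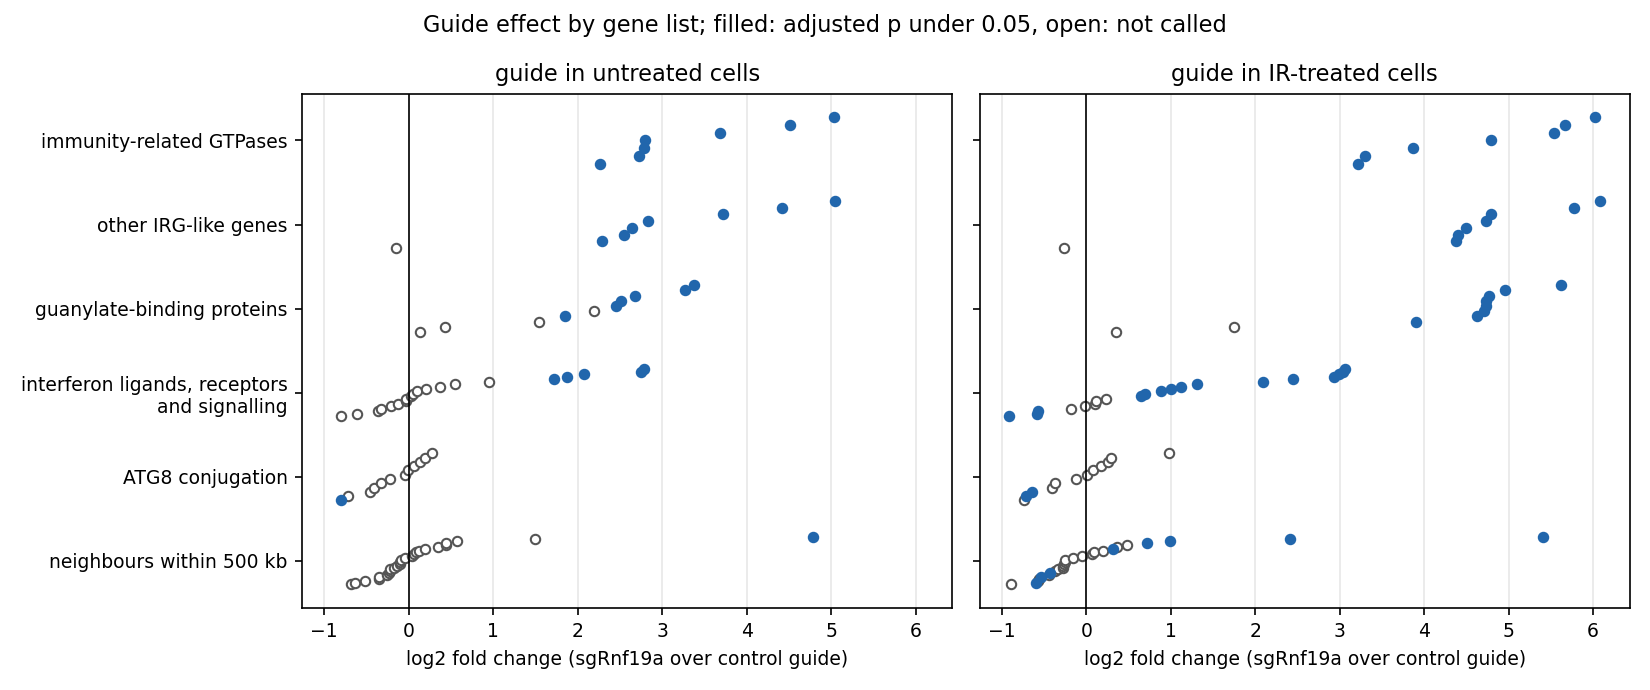
Log2 fold change of sgRnf19a over control guide (horizontal axis) for single genes by list, in untreated cells (left) and IR-treated cells (right); filled points were called at an adjusted p under 0.05, open points were not. Genes with 0 counts in a whole group are left out, and the neighbours are protein-coding genes without the IRG-like genes. The members and other IRG-like genes lie mostly above 2, whereas the ATG8 conjugation genes and the neighbours within 500 kb centre on 0.

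Other protein-coding genes within 500 kb of the members were counted, leaving out the IRG-like genes described above. Of these 68 genes, 29 were tested. With the guide, 1 was higher in untreated cells, and 5 were higher and 3 lower after IR. These counts are near the shares of all genes, 3.02% higher in untreated cells and 20.96% higher and 12.8% lower after IR. With IR, 9 of 29 were higher and 4 lower in sgRnf19a cells, and 10 higher and 4 lower in control cells, where 17.96% and 22.2% of all genes were higher. The gene called in untreated cells was Olfr56, named here after its values were seen, which shares exonic bases with Ifi47 and has 1644 counts in all. The neighbours' median log2 fold change was -0.09 in untreated cells and -0.16 after IR.

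Of 12 markers of immune cells, which also express this family, 9 were tested and none was called higher in any comparison. With IR, 3 of 9 were called lower in control cells and 1 of 9 in sgRnf19a cells. Of all genes, 25.7% and 17.6% were called lower there. Cd3e and Nkg7 were at 0 in all libraries. The 12 markers summed to 29.5 to 65.9 CPM in sgRnf19a_IR and 11.6 to 37.3 CPM in control_IR. Without IR they summed to 76.2 to 79.1 CPM in sgRnf19a and 64.6 to 76.1 CPM in control. This sum was higher with the guide in untreated cells only by a narrow margin, 76.2 CPM at the lowest against 76.1 CPM at the highest in control. After IR its ranges overlapped. The tested immune markers' median log2 fold change with the guide was -0.32 in untreated cells and 0.53 after IR. The part of the immune markers in the results was not tested. The 8 fibroblast markers, none at 0, summed to 105 to 208 CPM in sgRnf19a_IR, 416 to 446 CPM in control_IR, 63.3 to 151 CPM in sgRnf19a and 488 to 526 CPM in control. This sum was lower with the guide while the family was higher. Single markers differed: 3 of 8 were called lower with the guide in untreated cells and 2 of 8 after IR, and 0 higher. The markers' median log2 fold change with the guide was -0.49 in untreated cells and 0.33 after IR. The part of these markers in the results was not tested. The 5 epithelial markers, also none at 0, summed to 394 to 684 CPM in sgRnf19a_IR, 1043 to 1216 CPM in control_IR, 559 to 572 CPM in sgRnf19a and 658 to 830 CPM in control, and their part was not tested. The 5 endothelial markers summed to 6.31 CPM or less in every library.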

How the data were processed

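RNA from pelleted cells (Qiagen RNeasy) was, per the labels' protocols, depleted of ribosomal RNA, made into strand-marked libraries (NEB Ultra Directional kit, 12 PCR cycles) and read as 37-bp pairs on a NextSeq 500. The submitters' processing notes name Bowtie2, HTSeq, DESeq2 and the builds GRCm39 and mm10; no source used here gives their versions, their roles or the strand setting of the counting. The authors deposited whole-number counts per gene, treated as estimated counts because low values pile up at multiples of 4 (the value 4 occurs 5833 times, 3 occurs 961 times), and FPKM values, with normalization not stated further. Another 12 columns hold the same counts again and were left out. The 6 columns with a D were placed in the IR groups because no other group was left; their numbers (1, 3, 4 and 1, 4, 5) are not those of the labels.

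The members and gene lists were chosen with earlier results of these data known. All genes kept by filterByExpr (minimum count 10, minimum total 15; 18183 genes) were fitted over 12 libraries and 4 group means with TMM scaling and edgeR 4.0.16 (glmQLFit robust, glmQLFTest, 2-sided) in R 4.3.3; genes were called at a Benjamini-Hochberg adjusted p under 0.05, and an SE is the log2 fold change over the square root of F. Named were all members, per list the 4 genes (IR comparisons) or 2 genes (others) of smallest p at most, 7 fixed genes and the 6 nearest profiles; the text also names single called or uncalled genes of a list, chosen after their values were seen, and 1 gene the rule names is not reported here. Alternatives were DESeq2 1.42.0, other scalings, filters and libraries, splines on transcript length and GC content, counts divided by 4, and Tgtp1 and Tgtp2 summed. Others were limma 3.58.1 on log2(FPKM + 1) or log2(FPKM + 0.1), a scale that understates changes of low genes. The difference between IR responses can grow on it. Among the alternatives, log2(FPKM + 1) gave the highest difference for Ifi47 (2.97), Tgtp1 (3.04), Tgtp2 (2.88), Iigp1 (2.22) and Irgm2 (0.72), but not for Irgm1 or Igtp. The edgeR fit was tested on simulated counts. Floors and counts cover counting error only, since PCR copies carry no molecular identifiers. Coordinates are those of the deposited FPKM table; lengths, exons and shared stretches came from GENCODE M21, promoters from RefSeq.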

Additional observations from a re-analysis of the deposited data

Results flagged for a closer look

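The IR response differed between the guides for Ifi47, with a difference of 1.99 on the log2 scale (SE 0.25, edgeR adjusted p = 0.0110, adjusted p 2.70e-11 to 0.0689 over its alternatives), and for Tgtp2, with a difference of 1.85 (SE 0.32, edgeR adjusted p = 0.0318, up to 0.107 over its alternatives). All 3 sgRnf19a_IR libraries were above all 3 sgRnf19a libraries and all 3 control_IR libraries above all 3 control libraries for both genes, so the responses differ in size, not in direction. Tgtp2 shares 88.1% of its 37-base stretches with Tgtp1, whose own difference of 1.51 was not called (adjusted p = 0.0877).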

How the results depend on the processing

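For the 4 comparisons other than the difference, every member kept its direction and its call under every alternative run, except Iigp1 with IR in control cells on log2(FPKM + 1), with and without the filter on low values. For the difference between IR responses, Iigp1 reversed to -0.0084 with the length and GC correction; the cause was not tested. Counts of called genes moved more. With the guide in untreated cells 1131 genes were called, against 1766 by DESeq2, 2825 with only the groups compared, 1828 with the length and GC correction, 3262 with the replicate block and 642 to 2116 without single libraries. With the guide after IR 6140 were called, against 2797 with only the groups compared, 2952 on log2(FPKM + 1) with no filter and 3877 to 7612 without single libraries. For the difference 124 were called, against 1688 by DESeq2, 513 with the length and GC correction, 55 on log2(FPKM + 0.1) and 5 to 2624 without single libraries. The replicate numbers of untreated libraries did not pair them (correlations of same-numbered deviations -0.16, -0.01 and 0.03), and with the block all 7 members were still called. Upper-quartile scaling moved the median of all genes to 0.19 for IR in control cells, against -0.02, with 5122 genes higher and 3988 lower, against 4028 and 4679; log2(FPKM + 1) moved it to -0.34, with 2115 higher and 6038 lower. Depth limits Iigp1, Ifi47, Tgtp1 and Tgtp2 in control cells, at 26 to 104 counts a library.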
